A study of Azumapecten farreri with 9 samples.

Results

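Hemocyte transcriptomes of the scallop Azumapecten farreri were compared between animals given one of a pair of exosome preparations, the libraries titled LPS_T and the libraries titled NOR_T. The comparison took 6 of the 9 libraries of the series by their titles, 3 LPS_T libraries and 3 NOR_T libraries, and the 3 libraries of scallops injected with PBS gave background levels and entered the shared estimate of the spread. The title and the group label of each exosome library contradict each other. The LPS_T libraries carry the group label "Normal exosomes" and the NOR_T libraries carry the group label "LPS stimulating exosomes", so which preparation each title stands for could not be settled from these labels, and the groups are called by title throughout. All 9 libraries were poly(A) RNA of hemocytes, and the labels give no dose, time after injection, age or number of animals per library.

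Hemocytes are the circulating cells of molluscs. They phagocytose and encapsulate foreign material, secrete immune effectors and matrix, and take part in wound closure and shell repair. Exosomes are small vesicles that cells release from multivesicular bodies and that carry proteins and RNAs to other cells, and lipopolysaccharide (LPS), a component of the outer membrane of Gram-negative bacteria, is widely used to stimulate immune cells.

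The libraries held 41159111 to 42116106 estimated counts in LPS_T, 32318310 to 40217497 in NOR_T and 19894628 to 45831950 in PBS, and the spacing of low values gave 3.69 to 3.78 estimated counts per fragment. Positions are those of the deposited table, and its genome build is not given in the sources used here. Levels are given as CPM, estimated counts brought to a common library total with TMM scaling, with the SD over 3 libraries, and changes as the log2 change of LPS_T over NOR_T with its approximate SE. Because the labels do not say that libraries came from separate animals, the p-values speak to how far these libraries scatter, and that scatter may be technical. Spearman's rho between libraries was 0.9618 to 0.9628 within LPS_T, 0.9581 to 0.9607 within NOR_T and 0.9345 to 0.9399 between the groups. PBS library 1 stood apart, with 17.8% of its counts on 2 genes of scaffold38697 that took 0.0318% to 0.0979% elsewhere. Of 91 genes matching the hemocyte list, 35 passed the filter and were tested. These 35 summed to 12379 to 12996 CPM in LPS_T, 15500.0 to 15879.9 CPM in NOR_T and 15442 to 15586 CPM in PBS. The sum includes the high-level gene evm.TU.scaffold43873.44. At an adjusted p under 0.05, 5 of the 35 were higher and 5 lower in LPS_T than in NOR_T, with a median log2 change of 0.06. None of the 35 was at 0 in any group, but a tested gene had to reach an FPKM of 1.0 in 3 or more libraries.

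Of 21617 genes in the deposited table, 11678 were tested, and 2550 differed between LPS_T and NOR_T at an adjusted p under 0.05, which is 21.8% of those tested. Of these, 1487 (12.7%) were higher and 1063 (9.10%) lower in LPS_T. Changes of at least 2-fold were 994 (8.51%), with 797 (6.82%) higher and 197 (1.69%) lower in LPS_T. The higher genes thus made up 58.3% of the calls, and this split depended on the setting. With library totals alone it was 71.2% of 1741 calls (1239 higher, 502 lower). It was 55.0% with upper quartile scaling and with DESeq2, and 51.1% of 3146 calls (1608 higher, 1538 lower) without PBS library 1. Limma on FPKM, which changes the tool and the unit together, gave 74.8% of 1413 calls (1057 higher, 356 lower) with a pseudocount of 1, 75.0% of 1211 with a pseudocount of 0.1, and 51.4% of 2553 (1311 higher, 1242 lower) after quantile normalization. FPKM ranges of the 3 LPS_T and 3 NOR_T libraries did not overlap for 4474 genes (38.3%). The mean PBS level lay between the means of LPS_T and NOR_T for 901 (60.6%) of the 1487 higher genes and below both for 416 (28.0%). Of the 1063 lower genes, the mean PBS level lay above both for 465 (43.7%) and between them for 462 (43.5%). In bulk RNA, fewer cells of a type and less RNA per cell cannot be told apart.

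**Figure D1:**
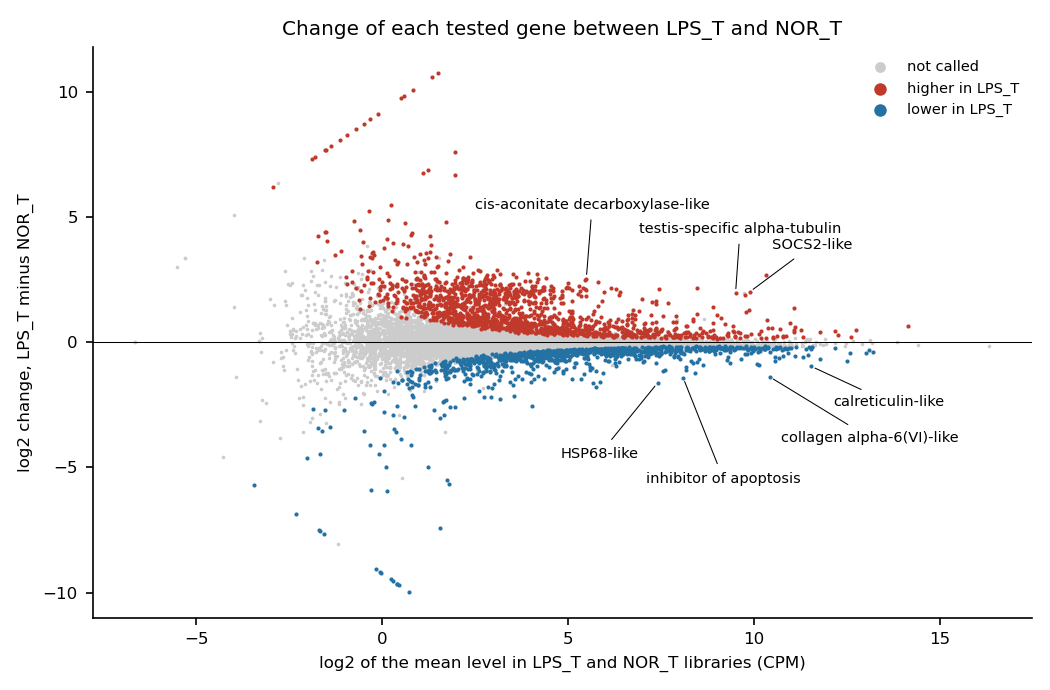
Log2 change of each of the 11678 tested genes, LPS_T minus NOR_T, against the log2 of its mean CPM over the LPS_T and NOR_T libraries, with called genes in red (1487 higher in LPS_T) and blue (1063 lower). The points on slanted lines at the far left are genes without counts in 1 group, whose fitted change depends on the prior count and is no measure of size.

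A feedback inhibitor of cytokine signalling had one of the smallest adjusted p-values of the comparison. A suppressor of cytokine signaling 2-like gene (evm.TU.scaffold15767.29, scaffold15767:556843-559450) had 1518, 1576 and 1476 CPM in the LPS_T libraries, against 364, 389 and 376 CPM in the NOR_T libraries and 282, 249 and 249.7 CPM in the PBS libraries. All 3 LPS_T libraries lay far above all 6 others. SOCS proteins are induced by STAT transcription factors and shut down the receptors that activated them, and this gene had a log2 change of 2.02 ± 0.06 (SE, adjusted p = 1.02e-14). STAT proteins carry cytokine signals to the nucleus. The list of cytokine receptor and STAT genes had 3 of 5 tested members higher and 0 lower, where 12.7% of all tested genes were higher. Its median log2 change was 0.28 against -0.005 over all tested genes. The higher members include the suppressor of cytokine signaling 2-like gene and can include the STAT5 genes named next, so the count is no separate result. The number higher was 2 with library totals alone or limma on log2(FPKM + 1), and 1 with limma on log2(FPKM + 0.1). A STAT5B gene (evm.TU.scaffold32463.6) averaged 276 ± 8.23 CPM in LPS_T, 192 ± 8.602 CPM in NOR_T and 157 ± 9.02 CPM in PBS libraries, a log2 change of 0.53 ± 0.06 (SE, adjusted p = 1.6e-06) that was not called with limma on log2(FPKM + 0.1). A STAT5A gene (evm.TU.scaffold545.33) had a smaller log2 change of 0.28 ± 0.07 (SE, adjusted p = 0.00403), which was not called with library totals alone or on FPKM by limma. An ETS-family transcription factor (evm.TU.scaffold38105.4) also stood far apart, with 1354, 1441 and 1313 CPM in the LPS_T libraries, against 350.3, 388 and 371 CPM in the NOR_T libraries and 286, 274 and 277 CPM in the PBS libraries. The groups did not overlap, and the log2 change was 1.89 ± 0.05 (SE, adjusted p = 1.02e-14). The cAMP-specific phosphodiesterase 4C-like gene (evm.TU.scaffold46831.8), an enzyme that degrades the second messenger cAMP, averaged 1322 ± 39.7 CPM in LPS_T, 533 ± 24.2 CPM in NOR_T and 462 ± 11.4 CPM in PBS libraries, a log2 change of 1.31 ± 0.05 (SE, adjusted p = 1.6e-12).

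Of 45 tested stress-inducible regulators 7 were higher and 12 lower, 42.2% against the 21.8% of all tested genes. Higher in LPS_T were 3 of 4 GADD45-type genes that lie close together on scaffold14907 and encode growth arrest and DNA damage proteins. The alpha-type gene (evm.TU.scaffold14907.9) had 701, 713 and 656 CPM in the LPS_T libraries, against 256, 267 and 258 CPM in the NOR_T libraries and 207, 182 and 192 CPM in the PBS libraries, and no library of LPS_T reached down to the others. Its log2 change was 1.41 ± 0.06 (SE, adjusted p = 1.6e-12). Its neighbours evm.TU.scaffold14907.12 and evm.TU.scaffold14907.10 had log2 changes of 0.96 (adjusted p = 4.68e-08) and 0.53 (adjusted p = 0.000177). The fourth copy, evm.TU.scaffold14907.8, averaged 44.8 ± 2.70 CPM in LPS_T, 50.3 ± 4.54 CPM in NOR_T and 42.5 ± 1.61 CPM in PBS libraries and did not pass the test (adjusted p = 0.212). Neighbouring copies can share reads, so how the counts were divided among them is uncertain. The ATF-3-like gene (evm.TU.scaffold17725.37), a stress-induced transcription factor, averaged 9.53 ± 1.58 CPM in LPS_T, 2.62 ± 0.243 CPM in NOR_T and 1.67 ± 0.616 CPM in PBS libraries, a log2 change of 1.86 ± 0.26 (SE, adjusted p = 1.97e-05). The MAP kinase phosphatase DUSP1-like gene (evm.TU.scaffold10271.7) also rose, with a log2 change of 1.34 ± 0.20 (SE, adjusted p = 4.77e-05).

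Several immediate-early transcription factors fell. An EGR1-B-like gene (evm.TU.scaffold10271.2), a zinc-finger factor switched on within minutes of many stimuli in vertebrates, had 4549, 4264 and 4262 CPM in the LPS_T libraries, against 6980.0, 7477 and 7504 CPM in the NOR_T libraries and 5254, 4543 and 5211 CPM in the PBS libraries. Its level was lower in LPS_T than in every NOR_T library, with a log2 change of -0.75 ± 0.07 (SE, adjusted p = 7.55e-08). The AP-1-like gene (evm.TU.scaffold59345.8), a Jun-type factor, averaged 2033 ± 69.7 CPM in LPS_T, 3069.7 ± 145 CPM in NOR_T and 2601 ± 77.9 CPM in PBS libraries, and the fos-related antigen 1-like gene (evm.TU.scaffold64999.41), its usual dimer partner, averaged 1432 ± 80.4 CPM in LPS_T, 2088 ± 85.4 CPM in NOR_T and 1669 ± 111 CPM in PBS libraries. Their log2 changes were -0.59 (adjusted p = 3.79e-07) and -0.54 (adjusted p = 3e-06). A DUSP10-like phosphatase (evm.TU.scaffold41971.22), which dephosphorylates stress-activated MAP kinases, fell by 0.74 on the log2 scale (adjusted p = 8.96e-08). Sequestosome-1 (evm.TU.scaffold11599.5), the autophagy receptor p62, averaged 763 ± 18.1 CPM in LPS_T, 1405 ± 85.7 CPM in NOR_T and 857 ± 56.1 CPM in PBS libraries, with a log2 change of -0.88 ± 0.06 (SE, adjusted p = 2.75e-09). For the EGR1-B-like, AP-1-like, Fra-1-like and sequestosome-1 genes the PBS mean lay between the LPS_T and NOR_T means.

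**Figure D2:**
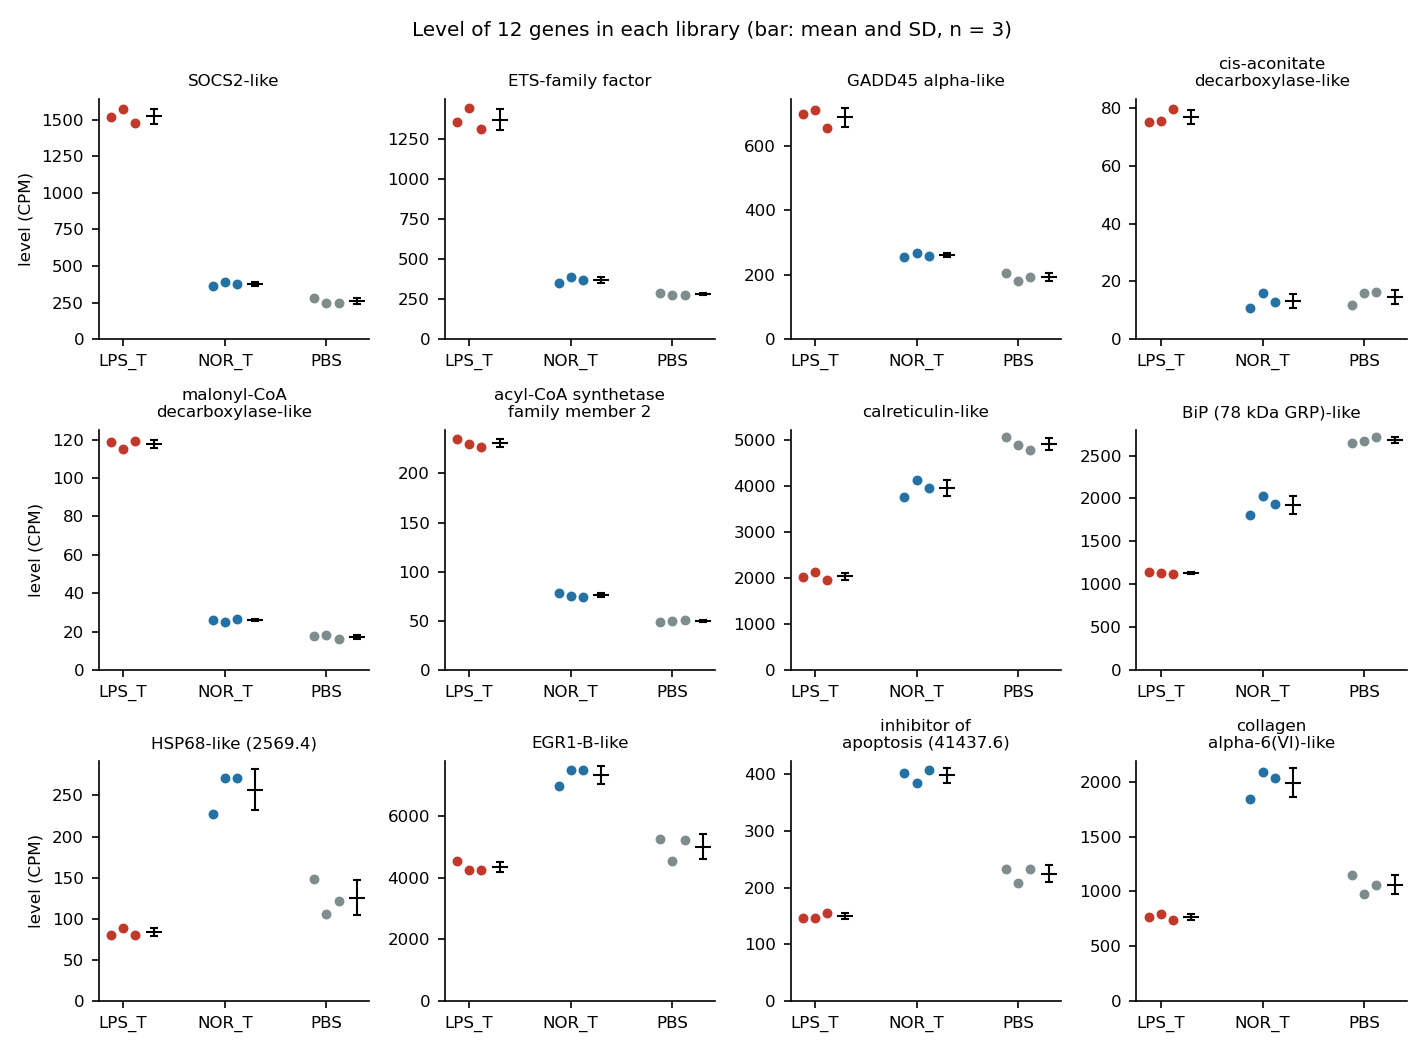
Levels of 12 genes in CPM, 1 point per library for LPS_T (red), NOR_T (blue) and PBS (grey), with the mean and SD of 3 libraries beside each group. The LPS_T libraries lie above all NOR_T libraries in the first 6 panels and below all of them in the other 6.

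Genes of protein folding in the endoplasmic reticulum (ER) were lower in LPS_T. These chaperones fold and quality-control proteins bound for secretion and the membrane. Of 22 tested members 13 were lower and 0 higher (59.1% called against 21.8% of all tested genes), with a median log2 change of -0.50. The number called lower ran between 5 and 14 over 22 alternative settings, and the median between -0.53 and -0.43. Calreticulin (evm.TU.scaffold42613.16), a calcium-binding lectin chaperone, had 2024, 2121 and 1955 CPM in the LPS_T libraries, against 3763, 4118 and 3959 CPM in the NOR_T libraries and 5059.9, 4883 and 4787 CPM in the PBS libraries. LPS_T was lowest and PBS highest, with no overlap (log2 change -0.96 ± 0.06, adjusted p = 8.91e-10). BiP, described as a 78 kDa glucose-regulated protein-like gene (evm.TU.scaffold38447.14) and the central HSP70 of the ER, had 1148, 1135 and 1125 CPM in the LPS_T libraries, against 1811, 2026 and 1938 CPM in the NOR_T libraries and 2650.3, 2665 and 2719 CPM in the PBS libraries. The groups kept the same order, and the log2 change was -0.76 ± 0.06 (SE, adjusted p = 9.51e-09). GRP94 (evm.TU.scaffold10699.10), the HSP90 of the ER, averaged 794 ± 44.8 CPM in LPS_T, 1474 ± 71.7 CPM in NOR_T and 1614 ± 21.6 CPM in PBS libraries, a log2 change of -0.89 ± 0.06 (SE, adjusted p = 1.39e-09). The disulfide isomerases PDIA6, PDIA4 and PDIA3, which form and shuffle disulfide bonds, had log2 changes of -0.94 (adjusted p = 1.39e-08), -0.80 (adjusted p = 2.94e-07) and -0.66 (adjusted p = 1.95e-08). Calnexin-like evm.TU.scaffold61185.19 fell by 0.69 on the log2 scale (adjusted p = 0.000246), a call lost on FPKM by limma. X-box-binding protein 1 (evm.TU.scaffold49503.19), a transcription factor that in vertebrates drives many of these genes under ER stress, averaged 1008 ± 67.0 CPM in LPS_T, 1188 ± 58.0 CPM in NOR_T and 1209.5 ± 72.2 CPM in PBS libraries, and its log2 change of -0.24 ± 0.06 (SE, adjusted p = 0.00988) was not called in 6 of the 22 alternatives. For the ER list the gene-centred level was lowest in LPS_T, intermediate in NOR_T and highest in PBS, with no overlap between the groups' libraries.

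Cytosolic heat shock proteins and their DnaJ co-chaperones had 17 of 72 tested members lower and 9 higher, with a median log2 change of -0.13. Their share called was 36.1% against 21.8% of all tested genes. An HSP68-like gene (evm.TU.scaffold2569.4, scaffold2569:46414-48083) had 80.7, 89.0 and 80.7 CPM in the LPS_T libraries, against 228, 272 and 271 CPM in the NOR_T libraries and 148, 106 and 122 CPM in the PBS libraries. LPS_T was lowest and the PBS libraries lay between the exosome groups (log2 change -1.62 ± 0.10, adjusted p = 2.73e-08). Its neighbour evm.TU.scaffold2569.5 and another HSP68-like gene, evm.TU.scaffold61451.24, had log2 changes of -0.99 (adjusted p = 6.53e-10) and -0.83 (adjusted p = 9.69e-09). HSP70 evm.TU.scaffold44765.1 averaged 181 ± 9.46 CPM in LPS_T, 395 ± 24.5 CPM in NOR_T and 210.3 ± 7.08 CPM in PBS libraries, a log2 change of -1.12 ± 0.06 (SE, adjusted p = 7.23e-11). The HSP70 B2-like genes evm.TU.scaffold8723.32, evm.TU.scaffold8723.33 and evm.TU.scaffold17795.24 had log2 changes of -1.09 (adjusted p = 3.29e-07), -0.80 (adjusted p = 7.3e-08) and -0.62 (adjusted p = 2.94e-07). HSP70 genes can be near-identical copies, so the division of reads among them is uncertain. HSP90 (evm.TU.scaffold41779.13), which matures kinases and receptors, averaged 2749.6 ± 75.3 CPM in LPS_T, 4322 ± 156 CPM in NOR_T and 6939 ± 39.7 CPM in PBS libraries, a log2 change of -0.65 ± 0.06 (SE, adjusted p = 6.61e-08). The co-chaperones DnaJ B4-like evm.TU.scaffold61451.33 and BAG3-like evm.TU.scaffold25473.21, partners of HSP70, had log2 changes of -0.51 (adjusted p = 1.43e-06) and -0.47 (adjusted p = 1.57e-06), and BAG3-like lost its call on FPKM by limma. In the other direction, the HSP70-binding protein 1 gene (evm.TU.scaffold51643.45), a nucleotide exchange factor, averaged 68.6 ± 1.97 CPM in LPS_T, 39.1 ± 0.901 CPM in NOR_T and 75.9 ± 3.81 CPM in PBS libraries, a log2 change of 0.81 ± 0.08 (SE, adjusted p = 1.42e-07). DnaJ B13-like evm.TU.scaffold37959.12, which in mammals is a sperm flagellum protein, rose by 2.34 on the log2 scale (adjusted p = 8.71e-09).

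All 8 subunits of the cytosolic chaperonin, the ring that folds actin and tubulin, were lower in LPS_T, at log2 changes between -0.59 and -0.20 and a median of -0.46. The theta subunit (evm.TU.scaffold17381.1) had 188, 189 and 179.7 CPM in the LPS_T libraries, against 258, 294 and 285 CPM in the NOR_T libraries and 635, 623 and 631 CPM in the PBS libraries. The exosome groups did not overlap, and both lay well under PBS (log2 change -0.59 ± 0.05, adjusted p = 1.44e-07 for LPS_T over NOR_T). The zeta subunit (evm.TU.scaffold45501.4) averaged 142 ± 11.2 CPM in LPS_T, 208 ± 5.58 CPM in NOR_T and 495 ± 38.9 CPM in PBS libraries, with a log2 change of -0.55 ± 0.07 (SE, adjusted p = 3.51e-06). The eta subunit (evm.TU.scaffold722365.1) had the largest adjusted p, with a log2 change of -0.36 ± 0.11 (SE, adjusted p = 0.0178). With limma on log2(FPKM + 1) or log2(FPKM + 0.1), 2 of the 8 were called lower and 0 higher. The number lower was 6 with library totals alone, without LPS_T library 3 or without NOR_T library 2. It was 7 without LPS_T library 1 or NOR_T library 1, and the median stayed between -0.50 and -0.39 over all alternatives.

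The translation apparatus showed small changes, most of them lower in LPS_T. Of 68 cytosolic ribosomal protein genes 14 were lower and 0 higher, with a median log2 change of -0.13. Their share called, 20.6%, lies near the 21.8% of all tested genes, of which 9.10% were lower. Of 69 translation factors and tRNA ligases 25 fell and 3 rose (40.6% called), at a median of -0.20. The numbers called lower depended on the setting: between 0 and 35 for the ribosomal proteins and between 1 and 35 for the factors and ligases, with 0 and 4 under library totals alone. Without PBS library 1 the ribosomal count was 35 and without NOR_T library 2 it was 6, and without LPS_T library 3 the count of factors and ligases was 11. Large-subunit protein L19-like (evm.TU.scaffold25473.19) averaged 1125 ± 42.5 CPM in LPS_T, 1347 ± 67.5 CPM in NOR_T and 1387 ± 37.2 CPM in PBS libraries, a log2 change of -0.26 ± 0.06 (SE, adjusted p = 0.00222) that was called neither with library totals alone nor on FPKM by limma. Among the 3 higher genes was the tryptophan-tRNA ligase (evm.TU.scaffold20655.4), an enzyme that interferon-gamma induces in human cells. It had 1661, 1784 and 1638 CPM in the LPS_T libraries, against 886, 958 and 880.0 CPM in the NOR_T libraries and 925, 855 and 854 CPM in the PBS libraries. The LPS_T libraries lay above all others (log2 change 0.90 ± 0.06, adjusted p = 1.31e-09). Of 68 spliceosome genes 16 were lower and 1 higher (25.0% called). With library totals alone 3 were lower, and with limma on log2(FPKM + 1) or log2(FPKM + 0.1) 0 were. Of 48 proteasome genes 2 were called (4.17%), and of 45 respiratory chain and ATP synthase genes 1 was called (2.22%).

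**Figure D3:**
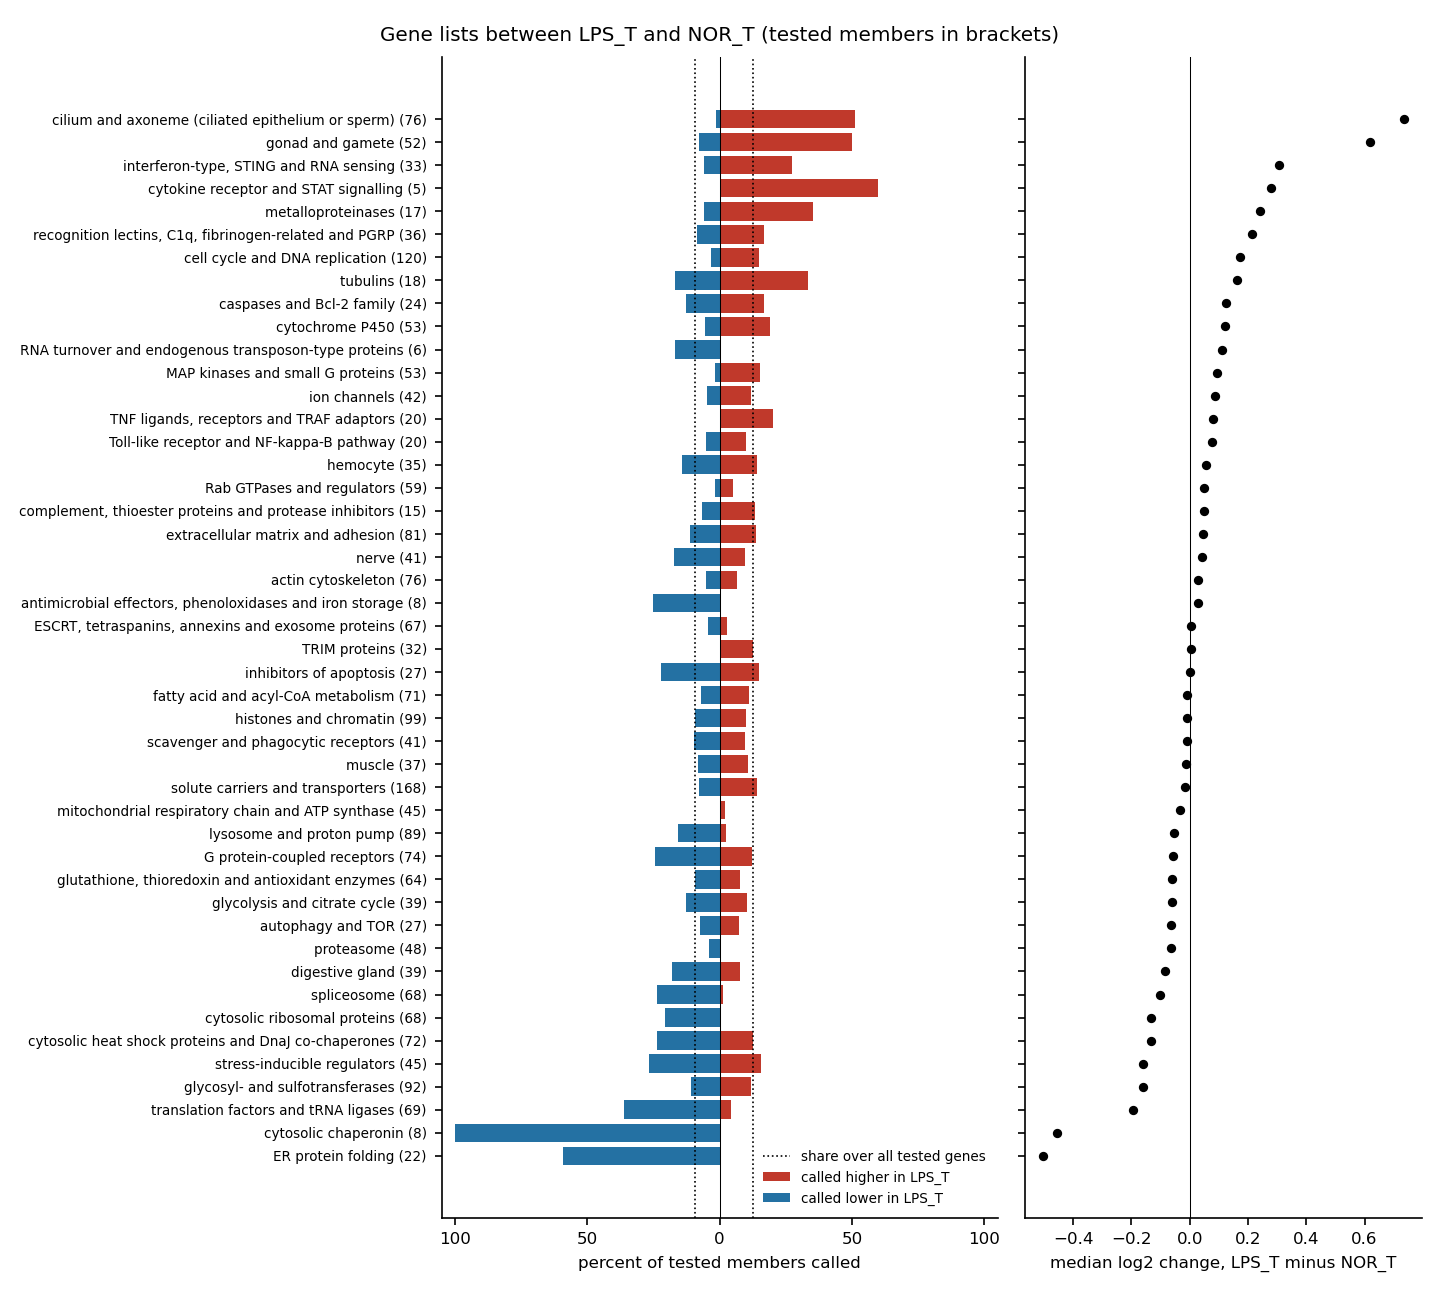
Left, percent of tested members of each gene list called higher (red) or lower (blue) in LPS_T than in NOR_T, with dotted lines at the shares over all tested genes (12.7% and 9.10%). Right, median log2 change, LPS_T minus NOR_T, of the same members, running between -0.50 for ER protein folding and 0.74 for cilium and axoneme.

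Genes of antiviral and RNA sensing were more often higher than lower, with 9 of 33 tested members higher and 2 lower and a median log2 change of 0.31. Their share called was 33.3% against 21.8% of all tested genes. An interferon regulatory factor 2-like gene (evm.TU.scaffold27749.7), of a family of transcription factors that control interferon genes in vertebrates, had 39.2, 44.6 and 41.4 CPM in the LPS_T libraries, against 12.8, 16.2 and 13.6 CPM in the NOR_T libraries and 43.3, 37.4 and 39.3 CPM in the PBS libraries. It was low in NOR_T, while LPS_T and PBS lay close together (log2 change 1.56 ± 0.11, adjusted p = 3.59e-09). Helicase with zinc finger domain 2 (evm.TU.scaffold49027.3), an interferon-induced coactivator in mammals, averaged 45.8 ± 2.47 CPM in LPS_T, 19.0 ± 2.23 CPM in NOR_T and 22.3 ± 1.98 CPM in PBS libraries, a log2 change of 1.27 ± 0.11 (SE, adjusted p = 6.65e-08). The RNA sensor DDX58 (RIG-I, evm.TU.scaffold42089.21) and an interferon-induced protein 44-like gene (evm.TU.scaffold49157.2) had log2 changes of 0.73 (adjusted p = 0.000181) and 0.82 (adjusted p = 0.000365). The MB21D2-like gene (evm.TU.scaffold47499.11), of the nucleotidyltransferase family that includes cGAS, went the other way. It had 0.821, 0.709 and 0.367 CPM in the LPS_T libraries, against 4.61, 4.71 and 6.29 CPM in the NOR_T libraries and 7.91, 8.81 and 5.24 CPM in the PBS libraries, so LPS_T was low against both other groups (log2 change -3.04 ± 0.32, adjusted p = 6.1e-07).

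Of 36 tested pattern recognition genes 6 were higher and 3 lower, and this share of 25% lies near the 21.8% of all tested genes. The gene for galectin-6, a lectin that binds galactosides (evm.TU.scaffold22817.95), averaged 16.97 ± 2.70 CPM in LPS_T, 4.43 ± 0.438 CPM in NOR_T and 5.47 ± 0.716 CPM in PBS libraries, a log2 change of 1.94 ± 0.18 (SE, adjusted p = 1.53e-07). Collectin-12-like evm.TU.scaffold52291.2, a lectin-type scavenger receptor, rose by 0.74 on the log2 scale (adjusted p = 1.14e-05), and the fibrinogen-like protein 1 gene fell by 0.61 on the log2 scale (adjusted p = 1.56e-06). A peptidoglycan-recognition protein SC2-like gene (evm.TU.scaffold60745.5), of a family that binds bacterial cell wall, had 0.727, 1.56 and 1.03 CPM in the LPS_T libraries, against 6.09, 7.22 and 6.59 CPM in the NOR_T libraries and 1.37, 0.674 and 0.406 CPM in the PBS libraries. The NOR_T libraries were high and the other groups low (log2 change -2.58 ± 0.38, adjusted p = 3.65e-05). Of 20 Toll-like receptor and NF-kappa-B genes 2 were higher and 1 lower (15.0% called), and none of the 3 kept its call in all alternatives. Of 20 TNF, TNF receptor and TRAF genes 4 were higher, or 2 without LPS_T library 3 or without NOR_T library 2 or 3, among them a TNF receptor superfamily gene (evm.TU.scaffold63423.48) with a log2 change of 0.72 ± 0.15 (SE, adjusted p = 0.00169). Of 32 tested TRIM genes 4 were higher (12.5% called) and 2 without any 1 LPS_T library, with 0 lower, led by TRIM62-like evm.TU.scaffold52871.20 at 32.8 ± 2.45 CPM in LPS_T, 7.05 ± 0.642 CPM in NOR_T and 12.8 ± 3.97 CPM in PBS libraries, a log2 change of 2.21 ± 0.19 (SE, adjusted p = 7.33e-08). On the same scaffold, TRIM75-like evm.TU.scaffold52871.18 rose by 2.05 on the log2 scale (adjusted p = 2.82e-06).

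Inhibitors of apoptosis (IAPs), which block caspases and in vertebrates also carry TNF signals, gave 6 lower and 4 higher members of 27 tested (2 higher without NOR_T library 3). Their share called was 37.0% against 21.8% of all tested genes. A cluster of 4 on scaffold41437 was lower throughout. Its strongest member, evm.TU.scaffold41437.6 (scaffold41437:54339-58210), had 147, 146 and 156 CPM in the LPS_T libraries, against 402, 384 and 408 CPM in the NOR_T libraries and 234, 208 and 233 CPM in the PBS libraries. No LPS_T library reached the NOR_T or PBS range, and the log2 change was -1.41 ± 0.06 (SE, adjusted p = 2.21e-12). The neighbours evm.TU.scaffold41437.5, evm.TU.scaffold41437.7 and evm.TU.scaffold41437.8 had log2 changes of -0.66 (adjusted p = 2.35e-07), -0.55 (adjusted p = 3.94e-06) and -0.25 (adjusted p = 0.00276), the last of which was not called under library totals alone. On FPKM by limma the last 2 were not called. A BIRC2-like gene on another scaffold (evm.TU.scaffold62537.1) averaged 21.3 ± 1.79 CPM in LPS_T, 6.65 ± 0.586 CPM in NOR_T and 6.40 ± 0.669 CPM in PBS libraries and rose (log2 change 1.68 ± 0.15, adjusted p = 9.86e-08). Of 24 caspase and Bcl-2 family genes 4 were higher and 3 lower (29.2% called), and without LPS_T library 2 these counts were 2 and 0. A caspase-3 gene (evm.TU.scaffold61475.3), an executioner protease of apoptosis in vertebrates, averaged 2.98 ± 0.486 CPM in LPS_T, 0 CPM in NOR_T and 0 CPM in PBS libraries. With no counts in the NOR_T libraries it was at least 9.81-fold higher in LPS_T, taking 3 fragments per library as the floor, which covers counting error only. At 0 CPM in both other groups, this gene could pass the FPKM filter only through the LPS_T libraries.

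**Figure D4:**
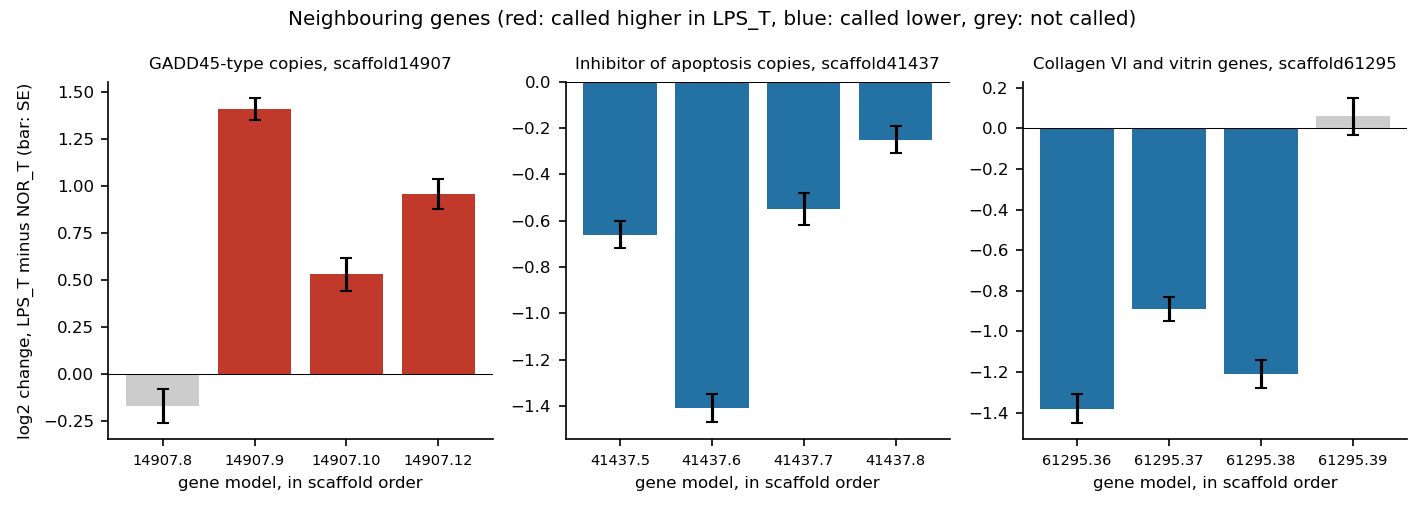
Log2 change, LPS_T minus NOR_T, with its SE, of neighbouring gene models on 3 scaffolds in their scaffold order: GADD45-type copies, inhibitor of apoptosis copies, and collagen VI, vitrin and collagen XII genes. In each of the first and last clusters 1 of 4 genes was not called, and all 4 inhibitor of apoptosis genes were lower.

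Several enzymes of lipid and intermediary metabolism were among the genes with the smallest adjusted p. Malonyl-CoA decarboxylase (evm.TU.scaffold64559.56), which removes malonyl-CoA and thereby relieves its block on mitochondrial fatty acid import, had 119, 115 and 119 CPM in the LPS_T libraries, against 26.3, 25.2 and 26.5 CPM in the NOR_T libraries and 17.7, 18.3 and 16.2 CPM in the PBS libraries. The LPS_T level was over 4 times that of either other group (log2 change 2.18 ± 0.08, adjusted p = 7.09e-13). The mitochondrial acyl-CoA synthetase family member 2 (evm.TU.scaffold46905.16), which activates fatty acids, had 235, 230.4 and 227 CPM in the LPS_T libraries, against 78.3, 75.6 and 74.7 CPM in the NOR_T libraries and 49.3, 49.6 and 51.0 CPM in the PBS libraries. The groups were again fully apart, with NOR_T between LPS_T and PBS (log2 change 1.60 ± 0.06, adjusted p = 7.09e-13). The list of fatty acid and acyl-CoA genes had 8 of 71 tested members higher and 5 lower, a share called of 18.3% against 21.8% over all tested genes. The number higher was 5 without any 1 LPS_T library or NOR_T library 2, and 4 without NOR_T library 3. A cis-aconitate decarboxylase-like gene (evm.TU.scaffold64667.1), related to the mammalian enzyme that makes itaconate in LPS-stimulated macrophages, had 75.2, 75.7 and 79.8 CPM in the LPS_T libraries, against 10.9, 15.8 and 12.8 CPM in the NOR_T libraries and 11.96, 15.8 and 16.3 CPM in the PBS libraries. It was high in LPS_T alone (log2 change 2.55 ± 0.13, adjusted p = 6.48e-11). Ceramide kinase-like evm.TU.scaffold63651.9, which phosphorylates ceramide, averaged 127 ± 8.45 CPM in LPS_T, 28.7 ± 3.17 CPM in NOR_T and 15.6 ± 0.246 CPM in PBS libraries, a log2 change of 2.14 ± 0.09 (SE, adjusted p = 2.72e-12). The vitamin D(3) 25-hydroxylase-like cytochrome P450 (evm.TU.scaffold61067.1) averaged 312 ± 9.91 CPM in LPS_T, 104 ± 3.32 CPM in NOR_T and 87.2 ± 7.37 CPM in PBS libraries, a log2 change of 1.59 ± 0.07 (SE, adjusted p = 2.21e-12), and 10 of 53 tested P450 genes were higher and 3 lower (24.5% called), with 6 higher without LPS_T library 1 or 3.

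Among cell-surface receptors and transporters, 9 of 74 tested G protein-coupled receptors were higher and 18 lower (36.5% called against 21.8% of all tested genes). The receptor with the smallest adjusted p, evm.TU.scaffold9805.18, described as neuropeptide S receptor-like, had 3135, 3226 and 2949.6 CPM in the LPS_T libraries, against 1148, 1248 and 1184 CPM in the NOR_T libraries and 919, 914 and 929 CPM in the PBS libraries. LPS_T was above the rest without overlap (log2 change 1.38 ± 0.06, adjusted p = 2.72e-12), while another neuropeptide S receptor-like gene (evm.TU.scaffold493.8) averaged 1189.8 ± 57.6 CPM in LPS_T, 1561 ± 60.4 CPM in NOR_T and 1545 ± 89.4 CPM in PBS libraries and fell by 0.39 on the log2 scale (adjusted p = 7.31e-05), a call lost on FPKM by limma. A rhodopsin-like receptor (evm.TU.scaffold64999.60) and GPR157-like evm.TU.scaffold54097.6 had log2 changes of 2.48 (adjusted p = 7.46e-12) and 1.82 (adjusted p = 1.72e-06). Lower receptors included the adenosine A3-like (evm.TU.scaffold33891.2), orexin type 2-like (evm.TU.scaffold16557.17) and prostaglandin E2 EP4-like (evm.TU.scaffold19911.2) genes, with log2 changes of -1.03 (adjusted p = 1.12e-07), -0.75 (adjusted p = 3.54e-08) and -0.92 (adjusted p = 9.18e-05). For all 3 the mean level was lowest in LPS_T and highest in PBS. Of 168 solute carriers 24 were higher and 13 lower, and their share of 22.0% lies near the 21.8% of all tested genes. Without LPS_T library 1 or without NOR_T library 3 the number higher was 13. Adjacent genes for amino acid transporters moved apart: the glycine transporter evm.TU.scaffold64705.2 averaged 1729.6 ± 67.8 CPM in LPS_T, 1165 ± 31.5 CPM in NOR_T and 813 ± 38.5 CPM in PBS libraries and rose by 0.57 on the log2 scale (adjusted p = 3.17e-07), and the GABA transporter evm.TU.scaffold64705.1 averaged 733 ± 15.5 CPM in LPS_T, 999.6 ± 13.4 CPM in NOR_T and 1195 ± 17.7 CPM in PBS libraries and fell by 0.45 on the log2 scale (adjusted p = 1.33e-06). The call of the GABA transporter was lost on FPKM by limma.

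Of 81 tested extracellular matrix genes 11 were higher and 9 lower, a share of 24.7% that lies near the 21.8% of all tested genes, and 7 were higher without LPS_T library 1. A cluster on scaffold61295 was lower in 3 of 4 genes. The collagen alpha-6(VI)-like gene (evm.TU.scaffold61295.36, scaffold61295:747307-750398), for a microfibril-forming collagen, had 764, 798 and 737 CPM in the LPS_T libraries, against 1843, 2092 and 2038 CPM in the NOR_T libraries and 1152, 975 and 1061 CPM in the PBS libraries. NOR_T was high, and PBS lay between the exosome groups (log2 change -1.38 ± 0.07, adjusted p = 2.46e-11). The adjacent collagen alpha-5(VI) and vitrin genes (evm.TU.scaffold61295.37 and evm.TU.scaffold61295.38) had log2 changes of -0.89 (adjusted p = 3.44e-09) and -1.21 (adjusted p = 2.27e-10). A collagen XII-like gene next to them (evm.TU.scaffold61295.39) averaged 344 ± 24.4 CPM in LPS_T, 329 ± 18.0 CPM in NOR_T and 220.3 ± 32.3 CPM in PBS libraries and did not pass the test (adjusted p = 0.677). Metalloproteinases, which cut matrix and surface proteins, were higher in 6 of 17 tested members and lower in 1 (41.2% called). A matrix metalloproteinase (evm.TU.scaffold61119.5) averaged 21950.2 ± 1355 CPM in LPS_T, 14115 ± 823 CPM in NOR_T and 11701 ± 1354 CPM in PBS libraries, a log2 change of 0.64 ± 0.08 (SE, adjusted p = 3.83e-06). The MMP-19-like gene evm.TU.scaffold28041.2 averaged 8136 ± 550.4 CPM in LPS_T, 5742 ± 143 CPM in NOR_T and 2674 ± 179 CPM in PBS libraries, a log2 change of 0.50 ± 0.07 (SE, adjusted p = 1.03e-05). On the same scaffold, MMP-19-like evm.TU.scaffold28041.4 averaged 2854 ± 102 CPM in LPS_T, 2041 ± 30.2 CPM in NOR_T and 905 ± 28.6 CPM in PBS libraries, a log2 change of 0.48 ± 0.06 (SE, adjusted p = 2.35e-06). Each of this pair lost its call with limma on log2(FPKM + 0.1). Peroxidasin (evm.TU.scaffold64279.168), which crosslinks collagen IV, averaged 252 ± 7.01 CPM in LPS_T, 227 ± 5.85 CPM in NOR_T and 149 ± 9.09 CPM in PBS libraries, with a log2 change of 0.15 ± 0.06 (SE, adjusted p = 0.0762) that did not pass the test.

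Transcripts that belong to cilia, sperm flagella and germ cells were higher in LPS_T. Of 76 tested genes of the cilium and axoneme list, 39 were higher, 30 of them at least 2-fold, and 1 was lower, with a median log2 change of 0.74. Of 52 tested gonad and gamete genes, 26 were higher, 22 of them at least 2-fold, and 4 were lower, with a median of 0.62. The shares called were 52.6% and 57.7%, against 21.8% of all tested genes. The medians stayed above 0 in all 22 alternatives, between 0.35 and 1.59 for the cilium list and between 0.36 and 1.20 for the gonad list.

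The testis-specific alpha-tubulin (evm.TU.scaffold64139.6) had 1088, 1249 and 1152 CPM in the LPS_T libraries, against 301, 305 and 278 CPM in the NOR_T libraries and 675, 788 and 633 CPM in the PBS libraries. LPS_T was highest, NOR_T lowest and PBS between (log2 change 1.98 ± 0.07, adjusted p = 2.21e-12). Axonemal dynein heavy chain 7 (evm.TU.scaffold59337.30), a motor of beating cilia, averaged 31.3 ± 2.27 CPM in LPS_T, 4.73 ± 0.545 CPM in NOR_T and 18.1 ± 2.95 CPM in PBS libraries, a log2 change of 2.73 ± 0.15 (SE, adjusted p = 8.79e-11). Tektin-2-like evm.TU.scaffold61233.11, a filament of the axoneme wall, averaged 38.3 ± 4.59 CPM in LPS_T, 7.995 ± 1.47 CPM in NOR_T and 19.999 ± 2.30 CPM in PBS libraries, a log2 change of 2.26 ± 0.15 (SE, adjusted p = 1.07e-09). The testis-specific kinases TSSK3-like evm.TU.scaffold34635.13 and TSSK4-like evm.TU.scaffold41531.8 had log2 changes of 2.62 (adjusted p = 8.22e-09) and 2.53 (adjusted p = 9.07e-07). Both are kinases of late sperm development in mammals. Also higher were 3 genes with roles in meiotic recombination, named after their values were seen. They were SYCP3 (evm.TU.scaffold12957.16), of the synaptonemal complex, DMC1 (evm.TU.scaffold60659.8), a strand-exchange protein, and SPO11-like evm.TU.scaffold64279.8, which makes the initiating breaks. They had log2 changes of 1.53 (adjusted p = 8.26e-07), 1.36 (adjusted p = 2.5e-05) and 2.60 (adjusted p = 0.00214). The gonad and gamete list takes in descriptions with the words synaptonemal, meiotic or meiosis. Its higher members can therefore include these genes, which are no separate result. Vitellogenin (evm.TU.scaffold25917.13), the yolk precursor, averaged 133 ± 8.97 CPM in LPS_T, 63.1 ± 8.54 CPM in NOR_T and 36.00 ± 5.02 CPM in PBS libraries, a log2 change of 1.08 ± 0.10 (SE, adjusted p = 2.66e-07).

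Summed over its tested members, the cilium list stood at 1417 to 1465 CPM in LPS_T, 632 to 668 CPM in NOR_T and 855 to 1047 CPM in PBS. The gonad list stood at 2745 to 2986 CPM in LPS_T, 1731 to 1815 CPM in NOR_T and 2125 to 2249 CPM in PBS. No tested member of either list was at 0 in a whole group, and only genes that passed the FPKM filter were tested. These 2 lists held 125 tested genes and 50 of the 797 genes that were at least 2-fold higher, of which 454 had an informative description. Without their members 2483 of 11553 genes were called, 1425 higher and 1058 lower. Their part in the changes of other genes was not tested.

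**Figure D5:**
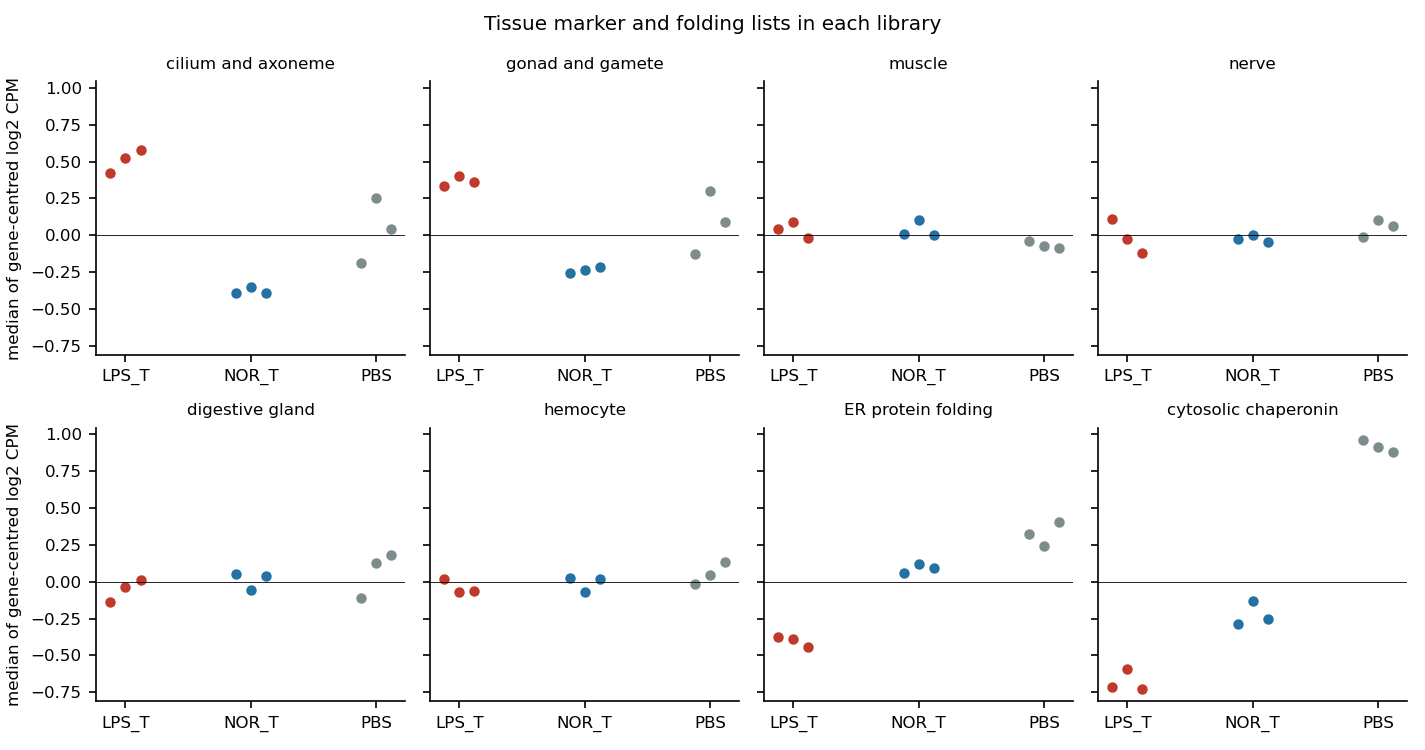
Median over the members of each list of the log2 CPM centred on each gene's mean over the 9 libraries, 1 point per library for LPS_T (red), NOR_T (blue) and PBS (grey). Cilium and gonad lists are highest in LPS_T and lowest in NOR_T, muscle, nerve, digestive gland and hemocyte lists overlap between LPS_T and NOR_T, and ER folding and chaperonin lists are lowest in LPS_T and highest in PBS.

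The lists of other tissues had medians near 0, while the summed levels of some did not overlap between LPS_T and NOR_T. Of 37 tested muscle genes 4 were higher and 3 lower (18.9% called against 21.8% of all tested genes). The muscle list summed to 12277 to 13281 CPM in LPS_T and 12962 to 13664 CPM in NOR_T, ranges that overlap. Nerve genes summed to 6592 to 7206 CPM in LPS_T and 5343 to 5615 CPM in NOR_T, a sum that includes the gene evm.TU.scaffold9805.18. The higher nerve sum in LPS_T rests on that gene, without which the LPS_T sums lie below the NOR_T sums. The neuropeptides capa receptor-like gene was the single tested nerve member at 0 in a whole group, LPS_T. Of 39 digestive gland genes 3 were higher and 7 lower (25.6% called), and of 41 nerve genes 4 were higher and 7 lower (26.8% called). Digestive gland genes summed to 2776 to 2894 CPM in LPS_T, 3078 to 3187 CPM in NOR_T and 3769 to 4044 CPM in PBS, without overlap. Of 35 hemocyte genes 5 were higher and 5 lower (28.6% called). Their sums of 12379 to 12996 CPM in LPS_T and 15500.0 to 15879.9 CPM in NOR_T did not overlap and include the gene evm.TU.scaffold43873.44. Allograft inflammatory factor 1-like (evm.TU.scaffold43873.44), a calcium-binding protein of macrophages and mollusc hemocytes, had 7250.0, 7098 and 6772 CPM in the LPS_T libraries, against 9118, 9838 and 9596 CPM in the NOR_T libraries and 8527, 8071 and 7790.5 CPM in the PBS libraries. It was lower in every LPS_T library than in every NOR_T library (log2 change -0.43 ± 0.06, adjusted p = 1.83e-05), and it lost its call with limma on log2(FPKM + 0.1). A laccase-3-like phenoloxidase (evm.TU.scaffold63699.20) and ferritin 2 (evm.TU.scaffold63483.24), an iron store, had log2 changes of -0.41 (adjusted p = 2.07e-05) and -0.32 (adjusted p = 0.00112), both without a call on FPKM by limma.

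The machinery that takes up, sorts and releases vesicles changed little in number. Of 67 tested ESCRT, tetraspanin, annexin and other exosome genes 2 were higher and 3 lower, 7.46% against 21.8% over all tested genes. Tetraspanin-18-like evm.TU.scaffold56263.3 averaged 122 ± 4.02 CPM in LPS_T, 72.1 ± 6.30 CPM in NOR_T and 53.2 ± 5.55 CPM in PBS libraries, a log2 change of 0.75 ± 0.08 (SE, adjusted p = 1.35e-06). Of 59 Rab GTPases and regulators 3 were higher and 1 lower (6.78% called). Lysosome genes were lower in 14 of 89 tested members and higher in 2 (18.0% called), with a median log2 change of -0.05. With library totals alone 6 were lower. Arylsulfatase B-like evm.TU.scaffold32013.4, a lysosomal enzyme of glycosaminoglycan breakdown, had 10.8, 10.8 and 9.62 CPM in the LPS_T libraries, against 25.3, 28.7 and 25.4 CPM in the NOR_T libraries and 32.6, 30.4 and 32.7 CPM in the PBS libraries. The level was low in LPS_T against both other groups (log2 change -1.34 ± 0.11, adjusted p = 3.14e-08).

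Some called genes had counts in 1 exosome group only. Of 11678 tested genes, 24 had no count in any NOR_T library, of which 17 were called. None in any LPS_T library was found for 18 tested genes, of which 14 were called. A gene near 0 in all but 1 group passed the FPKM filter only through that group, so its being high there was a condition of testing. A tubulin beta-4B-like gene (evm.TU.scaffold63991.2) averaged 5.70 ± 2.07 CPM in LPS_T, 0 CPM in NOR_T and 8.62 ± 6.62 CPM in PBS libraries, and was at least 18.8-fold higher in LPS_T. A collagen alpha-5(VI) gene (evm.TU.scaffold56559.2) averaged 2.82 ± 0.838 CPM in LPS_T, 0 CPM in NOR_T and 5.79 ± 1.21 CPM in PBS libraries, and was at least 9.27-fold higher. Absence from NOR_T alone, with counts in LPS_T and PBS, was shared by both. In the other direction, the epididymal secretory protein E1 gene (evm.TU.scaffold64243.5), of the NPC2 family of sterol carriers, averaged 0 CPM in LPS_T, 1.92 ± 0.756 CPM in NOR_T and 2.397 ± 0.621 CPM in PBS libraries and was at least 7.31-fold lower. The neuropeptides capa receptor-like gene (evm.TU.scaffold52289.2) averaged 0 CPM in LPS_T, 1.76 ± 0.244 CPM in NOR_T and 0.136 ± 0.236 CPM in PBS libraries and was at least 6.72-fold lower. Near-absence also marked a zinc finger RNA-binding protein gene (evm.TU.scaffold722165.1), at 0.0313 ± 0.0542 CPM in LPS_T, 5.85 ± 1.696 CPM in NOR_T and 0.167 ± 0.190 CPM in PBS libraries, and an arginine kinase gene (evm.TU.scaffold60199.9), at 0.131 ± 0.152 CPM in LPS_T, 6.84 ± 0.523 CPM in NOR_T and 0.366 ± 0.326 CPM in PBS libraries. Both were high in NOR_T alone, while another arginine kinase gene (evm.TU.scaffold43873.29) averaged 718 ± 51.9 CPM in LPS_T, 844 ± 46.7 CPM in NOR_T and 766 ± 54.9 CPM in PBS libraries.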

How the data were processed

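Poly(A) RNA of hemocytes was sequenced paired-end per the labels' protocols, by a method without strand information, in 9 libraries of 3 groups. The submitters' processing notes name HISAT, StringTie and edgeR without versions, while build and counting tool are not given in these sources. Each gene and library has, per the file headers, a deposited estimated count and a deposited FPKM value (fragments scaled by the authors for gene length and depth). The estimated counts are not single fragments: they cluster at multiples of 3.69 to 3.78. These deposited expected counts were rounded to whole numbers and tested as such, so the SEs and p-values rest on them and not on fragments. Fragments set the floor used for genes without counts in a group. They also replaced the counts in an alternative, which gave 2818 calls against 2550. Reads of near-identical copies and of overlapping or antisense genes cannot be told apart in the estimated counts.

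Groups were taken from the titles. Genes that reached an FPKM of 1.0 in 3 or more libraries were tested with edgeR 4.0.16 in R 4.3.3 (TMM scaling, the quasi-likelihood test and a model with a mean for each group, over all 9 libraries so that they share the spread), as LPS_T minus NOR_T, with Benjamini-Hochberg adjustment over all tested genes and a threshold of 0.05. The SE was approximated by dividing the log2 change by the root of its F statistic. Levels are TMM-scaled CPM, and list medians per library were taken from log2 CPM (prior count 2.0). On simulated counts for 11678 genes, 67 genes were changed by 0.5 on the log2 scale, 67 by 1 and 66 by 2. The test recovered 22.4%, 62.7% and 97% of these, with 5.47% of its 128 calls false. These shares hold for that simulated setting and are no error rate for the 2550 calls made on the libraries.

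The 46 gene lists were matched to gene descriptions. The members and lists were chosen with earlier results of these data known, and 5 list patterns (TNF, complement, interferon, actin and cytokine lists) were corrected after their matches had been seen, because they also matched parts of unrelated words. Named genes are the 12 largest changes each way among called, described genes with non-overlapping FPKM and a mean FPKM of at least 5.0 in the higher group, the 10 smallest adjusted p-values each way, up to 4 called members per list, and genes of interest from earlier results (the SOCS2-like, STAT5B, GADD45-type, vitellogenin, interferon regulatory factor 2-like, BiP and peroxidasin genes and all chaperonin subunits). Other genes were named after their values were seen: the meiotic genes, the HSP70 B2-like, HSP70-binding protein 1, DnaJ B4, BAG3, HSP90, PDIA4, calnexin, XBP1, ATF-3, DUSP, AP-1 and Fra-1 genes, the A3, EP4 and GPR157 receptors, interferon-induced protein 44-like, the remaining genes of the clusters, an arginine kinase, and the genes with no counts in 1 group. Alternatives were other scalings, filters and tools (DESeq2 1.42.0, limma 3.58.1), a replicate block, fragments in place of counts, and each replicate left out, 22 in all. No 2 libraries held identical values.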

Additional observations from a re-analysis of the deposited data

How the results depend on the processing

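Against 2550 calls (1487 higher, 1063 lower, 994 of at least 2-fold), library totals alone gave 502 lower genes. Limma on log2(FPKM + 1) gave 1413 calls with 356 lower, and with a pseudocount of 0.1 it gave 1211 calls with 908 higher and 303 lower. Requiring an FPKM of 5.0 gave 967 higher genes and 372 of at least 2-fold, and limma on quantile-normalized values 617 of at least 2-fold. Leaving out 1 library gave 1901 to 3146 calls, 1134 to 1608 higher, 733 to 1538 lower and 808 to 1059 of at least 2-fold, and the highest of these, 3146, was without PBS library 1, with 2525 calls shared. No shared call had the opposite direction in any alternative. The cause of these differences was not tested. No alternative moved the median of all tested genes past -0.051 or 0.022.

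Deviations of same-numbered LPS_T and NOR_T libraries correlated at 0.033, 0.08 and 0.014, and those of differently numbered libraries at -0.102 to 0.073. LPS_T libraries 1 and 2 correlated best with the NOR_T library of the same number, and LPS_T library 3 with NOR_T library 1 (0.073). Values this small cannot settle whether the replicate numbers pair the libraries. With the replicate block 2490 genes were called, 2413 of them shared.

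In 16 of 46 lists an alternative gave a median of the opposite sign, and in 6 of these the reported median was larger than its spread between replicates. For those 6, other leave-one-out values reached -0.09 (antioxidant), 0.06 (hemocyte), 0.06 (actin) and 0.07 (Rab). Hemocyte genes went to -0.03 on quantile-normalized values, to -0.02 without LPS_T library 1, and to -0.03 without NOR_T library 2 or 3. Rab genes went to -0.01 with the FPKM filter of 5.0, to -0.04 on quantile-normalized values and to -0.05 without NOR_T library 3. The antioxidant list went to 0.02 without NOR_T library 2, the actin list to -0.01 without NOR_T library 3, and on quantile-normalized values matrix genes went to -0.02 and ion channels to -0.03. Of 237 named genes with a call, 161 had it in every 1 of the 22 alternatives in which they were tested, and 0 reversed.

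Depth limits the low genes: 3 fragments corresponded to 0.265 CPM in LPS_T library 1.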

Other observations

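Genes outside the lists, named here after their values were seen, included some of the largest differences at high level. Over all tested genes, with list members and genes named above included, 797 called genes were at least 2-fold higher and 197 lower in LPS_T. Of these, 30 higher and 7 lower genes had a mean of 100 CPM or more in the higher group. An uncharacterized gene (evm.TU.scaffold36677.12, scaffold36677:210983-214230) had 2140.3, 2315 and 2183 CPM in the LPS_T libraries, against 332, 354 and 335 CPM in the NOR_T libraries and 491, 464 and 481 CPM in the PBS libraries. LPS_T stood above all other libraries, with a log2 change of 2.70 ± 0.06 (SE, adjusted p = 1.23e-16). A gene described as GST3 (evm.TU.scaffold53331.29), of the glutathione transferase family, averaged 1234 ± 45.2 CPM in LPS_T, 524 ± 32.8 CPM in NOR_T and 623 ± 11.3 CPM in PBS libraries, a log2 change of 1.23 ± 0.06 (SE, adjusted p = 6.7e-12). A taurocyamine kinase (evm.TU.scaffold43873.31), a phosphagen kinase that buffers ATP, averaged 285 ± 16.9 CPM in LPS_T, 65.0 ± 5.43 CPM in NOR_T and 165 ± 22.8 CPM in PBS libraries, a log2 change of 2.13 ± 0.09 (SE, adjusted p = 2.55e-11), and lies on the scaffold of the arginine kinase gene evm.TU.scaffold43873.29. Carnosine synthase 1-like evm.TU.scaffold14657.15 averaged 134 ± 6.26 CPM in LPS_T, 33.4 ± 1.58 CPM in NOR_T and 30.2 ± 4.23 CPM in PBS libraries, with a log2 change of 2.00 ± 0.09 (SE, adjusted p = 8.83e-12). The vesicular glutamate transporter 2-like gene (evm.TU.scaffold34923.3) averaged 253 ± 4.32 CPM in LPS_T, 121 ± 4.63 CPM in NOR_T and 111 ± 4.79 CPM in PBS libraries, a log2 change of 1.07 ± 0.06 (SE, adjusted p = 1.07e-10). NFX1-type zinc finger-containing protein 1 (evm.TU.scaffold64769.3), an RNA helicase that senses viral RNA in mammals, averaged 151 ± 23.2 CPM in LPS_T, 70.1 ± 4.84 CPM in NOR_T and 57.1 ± 7.80 CPM in PBS libraries, a log2 change of 1.11 ± 0.11 (SE, adjusted p = 1.35e-06).

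Cell cycle and DNA replication genes were higher in 18 of 120 tested members and lower in 4, with a median log2 change of 0.17. Their share called, 18.3%, lies below the 21.8% of all tested genes. The number higher was 11 without LPS_T library 2 and 5 to 6 with limma on FPKM at pseudocounts of 0.1 and 1, and 9 were lower without PBS library 1. A G2/mitotic-specific cyclin B-like gene (evm.TU.scaffold40559.6) averaged 39.0 ± 2.31 CPM in LPS_T, 22.6 ± 1.603 CPM in NOR_T and 26.8 ± 1.75 CPM in PBS libraries, a log2 change of 0.79 ± 0.10 (SE, adjusted p = 8.37e-06), and the replication licensing factor mcm3-like evm.TU.scaffold62691.6 rose by 0.75 on the log2 scale (adjusted p = 0.000449). Of 99 histone and chromatin genes 10 were higher and 9 lower (19.2% called). Without LPS_T library 1 these counts were 6 and 3, without LPS_T library 2 they were 6 and 4, and 2 were lower without LPS_T library 3 or NOR_T library 2. Among the higher were a pair of PRDM9-like histone methyltransferases (evm.TU.scaffold40169.16 and evm.TU.scaffold63423.54), which in mammals mark sites of meiotic recombination, with log2 changes of 2.16 (adjusted p = 4.29e-06) and 1.49 (adjusted p = 0.000327), and a centromeric histone H3-like gene (evm.TU.scaffold64565.1) with a log2 change of 4.29 ± 0.70 (SE, adjusted p = 0.000123). Telomerase reverse transcriptase-like evm.TU.scaffold64633.17 averaged 6.73 ± 0.845 CPM in LPS_T, 12.8 ± 0.133 CPM in NOR_T and 5.83 ± 1.08 CPM in PBS libraries and fell by 0.93 on the log2 scale (adjusted p = 0.000722), a call lost with limma on log2(FPKM + 0.1). Of 18 tubulins 6 were higher and 3 lower (50.0% called), and of 76 actin cytoskeleton genes 5 were higher and 4 lower (11.8% called). A cytoplasmic actin 1-like gene (evm.TU.scaffold63197.2) averaged 91.1 ± 4.75 CPM in LPS_T, 29.2 ± 3.18 CPM in NOR_T and 71.9 ± 12.9 CPM in PBS libraries, a log2 change of 1.64 ± 0.12 (SE, adjusted p = 8.47e-09), and profilin-like evm.TU.scaffold41425.25 averaged 1225 ± 90.2 CPM in LPS_T, 1843 ± 144 CPM in NOR_T and 1521 ± 146 CPM in PBS libraries, with a log2 change of -0.59 ± 0.08 (SE, adjusted p = 9.53e-06). Actin and tubulin copies can share reads, so the split among them is uncertain.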
